A study of Mus musculus with 9 samples.

Results

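The comparison set the PPARγ receptor without its A/B-domain against full-length PPARγ2, both in the presence of agonist, on 6 of the 9 expression arrays of the series. Its members were the 3 arrays of cells given the adenovirus HA-PPARgCDE and the 3 arrays of cells given the adenovirus HA-PPARg2, chosen by their sample titles. All cells were NIH-CAR, a single clone of mouse NIH-3T3 fibroblasts at passage 12 that stably carries the coxsackievirus and adenovirus receptor CARΔ1. Both receptors carried an HA tag, the virus was left on the cells for 2 h, and both groups then received rosiglitazone at 1 µM. Another group of 3 arrays, given an adenovirus without insert and DMSO vehicle, served as the reference for which genes responded at all. The series has no receptor group without agonist, so the differences between the receptors refer to cells treated with rosiglitazone. It also has no empty-vector group with rosiglitazone, so against empty vector the receptor and the agonist cannot be told apart. A rise or fall with a receptor below means receptor plus rosiglitazone against empty vector plus vehicle. The labels speak of individual experiments in 1 clonal line, and the p-values measure the spread between those arrays.

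PPARγ is a ligand-activated nuclear receptor that binds DNA with a retinoid X receptor and directs the adipocyte programme of lipid uptake, storage and oxidation. Its C-terminal part binds the ligand and recruits coactivators when an agonist is present. The N-terminal A/B-domain holds a second activation function that does not need ligand, and it is the segment missing from PPARgCDE. The study's title gives the question, whether the domain's role in transactivation is specific to certain genes.

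No gene was called different between the receptors, and the genes with the smallest p-values included known targets of the receptor that were lower without the A/B-domain. Cidec, Lpl and Fitm2, which act in lipid storage and uptake, were lower by 1.96, 1.32 and 0.81 on the log2 scale. Other genes that were raised with both receptors, such as the fatty acid oxidation genes Cpt1a and Acot2, differed by 0.08 and -0.03. Both sets were picked by this same difference, the former for small p-values and the latter for intervals nearest to 0. Their contrast is therefore a description, and no difference between functions was tested. All levels and differences are deposited log2 values, with 1 probe set per gene, and a difference is deleted minus full-length receptor unless stated. Tests are limma moderated tests over 18193 genes, two-sided, and a gene is called where the Benjamini-Hochberg adjusted p is under 0.05.

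By this rule limma called 0 of 18193 genes (0%). At an unadjusted p under 0.05 there were 178 genes lower with the deleted receptor (0.978%) and 99 higher (0.544%), 277 in all (1.52%). Equal replicate numbers behaved as pairs of arrays, and with the number as a block limma again called 0 genes, with 360 lower (1.98%) and 426 higher (2.34%) at an unadjusted p under 0.05, 786 in all (4.32%). The smallest adjusted p was 0.080, for Adamts4, and 0.0784 with the block, shared by Fat4, Metrnl, Foxred2 and Adamts4. These values used the empty-vector arrays for the spread. On the 6 compared arrays alone the smallest limma adjusted p was 0.691, and 0.52 with the block. The block over 9 arrays also joins full-length and empty-vector arrays of equal number, which were not treated as pairs. In 572 genes all 3 arrays of the deleted receptor lay below all 3 of the full-length receptor (3.14%), and in 368 they lay above (2.02%), 940 in all (5.17%). A difference of at least 1 log2 unit was seen in 9 genes lower (0.0495%) and 7 genes higher (0.0385%), and the arrays did not overlap in 3 (0.0165%) and 4 (0.022%) of them. The median difference over all genes was -0.01, with quartiles of -0.11 and 0.07.

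The transcript of the receptor itself was at a like mean level in both groups. Pparg read 10.70, 12.22 and 10.84 on full-length arrays 1, 2 and 3. On the deleted-receptor arrays it read 10.74, 12.01 and 11.26, against 7.06 ± 0.10 (SD, n = 3) with empty vector. Array 2 was the highest in both groups and the groups overlapped. The difference of 0.09 had a 95% interval from -0.83 to 1.01, so a difference of almost 1 log2 unit in transcript would not have been seen. The 1 probe set for Pparg cannot tell the viral transcript from that of the cell's own gene, and protein was not measured. Rxra, a DNA-binding partner of PPARγ, differed by -0.16 (95% interval -0.56 to 0.23) and Cxadr, the mouse gene of the virus receptor, by 0.10 (95% interval -0.17 to 0.37).

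The label of fibroblasts was checked against marker lists. Of 15 fibroblast markers 14 lay above the median gene level of 7.44, and the list's mean ran from 11.70 to 12.25 over the full-length arrays and from 11.73 to 12.28 over the deleted-receptor arrays. Of 7 adipocyte markers 0 lay above that level, with list means from 6.45 to 6.57 and from 6.02 to 6.13. Markers were set against that level by their mean over all 9 arrays. Cidec, in the adipocyte list, had means of 7.66 with the full-length and 5.70 with the deleted receptor. Fabp4 and Lpl, outside that list, had means of 13.42 and 11.25 with the full-length and 12.36 and 9.93 with the deleted receptor. Muscle, bone, leukocyte and epithelial markers lay mostly below 7.44. The arrays numbered 3 stood apart from the others in the 18S ribosomal RNA control probe sets, at 7.59 with the full-length and 8.06 with the deleted receptor, against 10.51 to 12.35 on the other 4 arrays. For several genes and lists the value without them is given as well.

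Among genes of lipid storage and uptake, Cidec showed the largest difference of the 18193 genes. Cidec encodes a protein of the lipid droplet surface that promotes droplet fusion. It read 7.92, 8.20 and 6.86 with the full-length and 5.59, 6.11 and 5.40 with the deleted receptor, against 5.15 ± 0.21 (SD, n = 3) with empty vector. The 3 deleted-receptor arrays lay below all full-length arrays and above the empty-vector mean. The difference of -1.96 (SE 0.32, 95% interval -2.69 to -1.23), a 3.89-fold lower value, had a limma adjusted p of 0.871 and of 0.215 with the block. Pair by pair it was -2.33, -2.09 and -1.46. Full-length array 3 was the lowest of its group, and without that array the difference was -2.36 and Cidec was called by limma (adjusted p = 0.036). Against empty vector Cidec rose by 2.51 with the full-length receptor (limma adjusted p = 0.00915) and was 0.55 higher with the deleted receptor (adjusted p = 1.00), where it was not called.

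Lpl, lipoprotein lipase, which releases fatty acids from lipoprotein triglyceride, read 11.40, 11.30 and 11.04 with the full-length and 10.25, 10.10 and 9.43 with the deleted receptor. The empty-vector mean was 7.39 ± 0.29 (SD, n = 3), so both receptor groups lay far above it and did not overlap with each other. The difference was -1.32 (SE 0.23, 95% interval -1.83 to -0.80), a 2.49-fold lower value, with a limma adjusted p of 0.871 and of 0.215 with the block. The second probe set of Lpl gave -1.35. Lpl rose against empty vector with both receptors, by 3.86 and 2.54 (limma adjusted p = 0.000235 and 0.00182).

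Fitm2 encodes a protein of the endoplasmic reticulum needed for droplet formation. Its arrays read 9.76, 10.06 and 9.59 with the full-length and 8.91, 9.28 and 8.78 with the deleted receptor, against 8.03 ± 0.14 (SD, n = 3) with empty vector. The groups did not overlap, and the pairs gave near-equal differences of -0.86, -0.78 and -0.80. The difference of -0.81 (SE 0.17) had a limma adjusted p of 1.00 and of 0.377 with the block. Fitm2 rose by 1.77 with the full-length receptor (limma adjusted p = 0.00179). With the deleted receptor it was 0.96 higher (adjusted p = 0.109), which was called with the block (adjusted p = 0.0263).

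Pcx and Fabp4 were lower in the mean, with overlap between the groups. Pcx, pyruvate carboxylase, which supplies oxaloacetate, read 9.22, 9.50 and 8.44 with the full-length and 7.86, 8.54 and 7.49 with the deleted receptor, against 7.17 ± 0.05 (SD, n = 3) with empty vector. Deleted-receptor array 2 lay above full-length array 3, and the difference was -1.09 (95% interval -1.78 to -0.41, limma adjusted p = 1.00, or 0.663 with the block). Fabp4, an adipocyte carrier of fatty acids, read 13.50, 13.63 and 13.13 with the full-length and 12.89, 13.15 and 11.04 with the deleted receptor, against 5.82 ± 0.37 (SD, n = 3). Deleted-receptor array 3 was the lowest by far in that gene, with pair differences of -0.62, -0.47 and -2.09. The mean difference of -1.06 (95% interval -2.13 to 0.01) became -0.55 without the arrays numbered 3. The 3 other Fabp4 probe sets gave -1.32 to -1.02.

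The PPAR targets described here were called higher than empty vector with either receptor, some of them with the full-length receptor alone. Such a selection favours lower values of deleted minus full-length receptor. The other 6 PPAR target genes called against empty vector differed less in the mean. Cpt1a, the gate enzyme of mitochondrial fatty acid import, read 11.33, 11.40 and 11.33 with the full-length and 11.38, 11.52 and 11.40 with the deleted receptor, against 9.62 ± 0.32 (SD, n = 3) with empty vector. Its values overlapped and its difference of 0.08 had a 95% interval from -0.27 to 0.43. Its 2 other probe sets gave -0.16 to 0.28. Acot2, a mitochondrial acyl-CoA thioesterase, differed by -0.03 (95% interval -0.34 to 0.28), but its second probe set gave 0.29, outside that interval. Etfdh, which passes electrons from fatty acid oxidation to the respiratory chain, differed by -0.09 (95% interval -0.35 to 0.17) and Ech1, an enoyl-CoA isomerase of unsaturated fatty acid breakdown, by -0.02 (95% interval -0.49 to 0.45). None of these 4 intervals reaches -0.81, the difference of Fitm2, but Fitm2 was picked for its small p-value. Its own 95% interval ran from -1.19 to -0.43, which the interval of Ech1 overlaps. Differences between genes were not tested. Plin2, a coat protein of lipid droplets, differed by -0.18 and Angptl4, a secreted inhibitor of Lpl, by -0.19, with wider 95% intervals of -0.96 to 0.60 and -1.05 to 0.66 and -0.46 in the second probe set of Angptl4, so a difference as large as that of Fitm2 is not outside them.

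**Figure D1:**
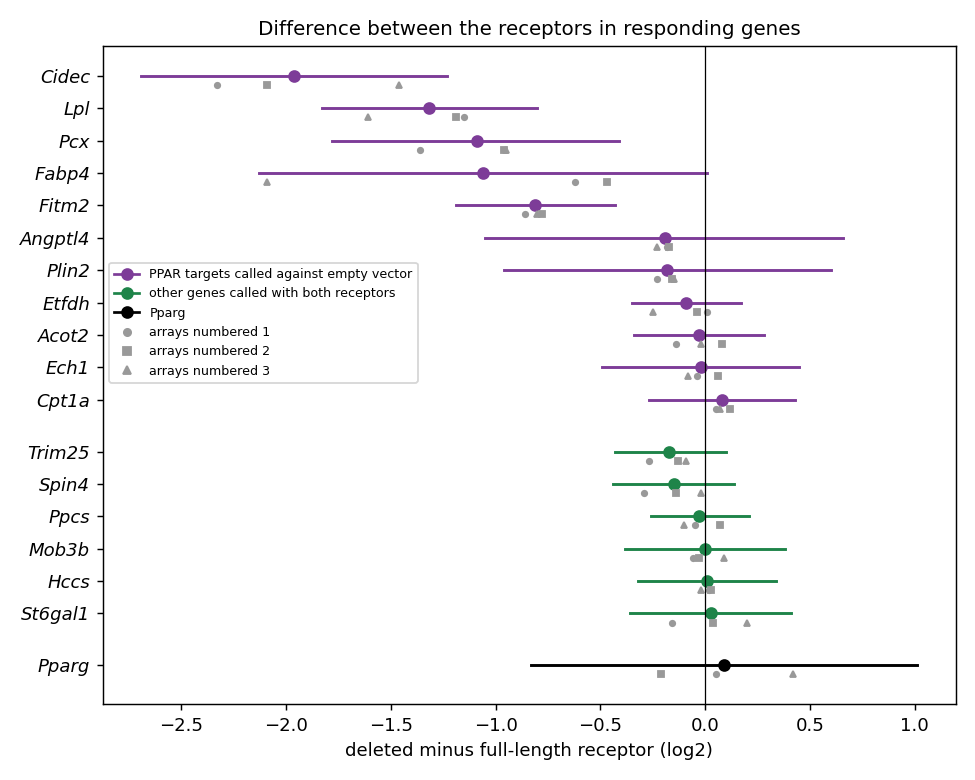
Differences between the receptors in genes called higher than empty vector with 1 or both receptors. The x axis is deleted minus full-length receptor in log2 units, the points and lines are limma differences with 95% intervals (n = 3 and 3 arrays), and the small grey symbols are the differences between arrays of equal number. Cidec, Lpl, Pcx and Fitm2 have intervals below 0, Fabp4 has 1 pair at -2.09, and the intervals of Cpt1a, Acot2 and the genes drawn in green lie around 0. Cidec, Pcx, Fitm2 and Ech1 were called against empty vector with the full-length receptor only. Its arrays also enter the difference drawn, so such a selection favours values below 0.

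To show the start-site DNA of lipid genes that were lower beside others with smaller mean differences, 4 promoters are printed, from the mouse RefSeq set of GRCm38.p6, as the 250 bases before an annotated start on the gene's strand. Cidec (chr6:113435761-113436010, minus strand) and Fitm2 (chr2:163472630-163472879, minus strand) are lipid droplet genes that were lower with the deleted receptor, while Plin2 (chr4:86670060-86670309, minus strand) and Cpt1a (chr19:3323051-3323300, plus strand) had mean differences of -0.18 and 0.08. Capitals mark the core hexamer AGGTCA of nuclear receptor elements, searched on both strands, so that TGACCT is the hexamer on the other strand.
Cidec: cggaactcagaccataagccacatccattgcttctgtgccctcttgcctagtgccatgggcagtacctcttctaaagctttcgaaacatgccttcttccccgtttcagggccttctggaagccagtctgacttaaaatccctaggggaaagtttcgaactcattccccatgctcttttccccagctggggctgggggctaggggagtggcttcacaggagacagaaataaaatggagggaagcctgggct
Fitm2: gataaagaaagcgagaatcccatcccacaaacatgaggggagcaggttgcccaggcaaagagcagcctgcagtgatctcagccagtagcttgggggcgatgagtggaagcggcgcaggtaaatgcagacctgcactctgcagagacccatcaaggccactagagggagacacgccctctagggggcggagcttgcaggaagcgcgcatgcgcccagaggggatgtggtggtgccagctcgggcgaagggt
Plin2: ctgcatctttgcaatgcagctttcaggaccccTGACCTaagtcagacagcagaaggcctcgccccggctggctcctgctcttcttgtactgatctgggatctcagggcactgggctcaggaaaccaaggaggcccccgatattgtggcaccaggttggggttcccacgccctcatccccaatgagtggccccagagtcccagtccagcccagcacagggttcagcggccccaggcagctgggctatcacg
Cpt1a: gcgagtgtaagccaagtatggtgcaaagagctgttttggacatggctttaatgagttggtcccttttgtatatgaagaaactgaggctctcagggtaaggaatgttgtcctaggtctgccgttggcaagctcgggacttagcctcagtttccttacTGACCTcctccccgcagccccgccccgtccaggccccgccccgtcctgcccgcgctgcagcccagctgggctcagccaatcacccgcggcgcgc
The hexamer stood 218 bases before the start in Plin2 and 94 bases before it in Cpt1a, and the letters were absent from the Cidec and Fitm2 windows. They were also absent from the windows, not printed, of Acot2, Ech1 and Etfdh, which differed by -0.03, -0.02 and -0.09. Pcx, which was lower, lacked them as well, so the 4 printed promoters do not stand for the other targets. Of 32851 RefSeq windows of this length 14% held it, and 11 windows (0.0335%) held the direct repeat AGGTCANAGGTCA, the element type bound by PPARγ with a retinoid X receptor. A promoter entry was found for 29 of 37 named genes, with 42 windows, of which 8 windows of 7 genes held the hexamer and 0 held the repeat. Among genes with an entry the hexamer was found in 1 of 7 of those lower with the smallest p-values. It was found in 2 of 8 of the PPAR targets called against empty vector, and in 3 of 8 of the genes whose interval lay nearest to 0. A match describes letters in the window and is not evidence of binding.

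Beyond the lipid genes, the 10 genes with the smallest p-values among those lower included enzymes and membrane proteins of other kinds. Adamts4, a secreted protease that cuts the proteoglycan aggrecan, had the smallest p-value, with 7.69, 7.74 and 7.84 with the full-length and 6.83, 6.73 and 6.84 with the deleted receptor. The empty-vector mean was 6.54 ± 0.07 (SD, n = 3), so the deleted receptor lay near it and the full-length receptor well above. The difference was -0.96 (SE 0.10, 95% interval -1.19 to -0.73), a 1.94-fold lower value, with the limma adjusted p of 0.080. Its second probe set gave -0.58. Adamts4 rose by 1.21 with the full-length receptor (limma adjusted p = 0.000794), and with the deleted receptor it was 0.25 higher (adjusted p = 1.00).

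Ephx2, the soluble epoxide hydrolase, read 8.22, 8.25 and 8.25 with the full-length and 7.59, 7.38 and 7.64 with the deleted receptor, against 7.01 ± 0.17 (SD, n = 3) with empty vector. The groups did not overlap and the difference was -0.70 (SE 0.12, limma adjusted p = 0.871). Pde1b, a calmodulin-dependent phosphodiesterase of cyclic nucleotides, read 8.25, 8.33 and 8.47 against 7.70, 7.82 and 7.85, a difference of -0.56 (SE 0.11). It rose with both receptors, by 1.75 and 1.19 (limma adjusted p = 0.000237 and 0.00227). For Ephx2 the rise of 1.23 with the full-length receptor was called (adjusted p = 0.00211) and the 0.53 with the deleted receptor was not (adjusted p = 0.317).

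Slc25a30, a carrier of the inner mitochondrial membrane, was lower by 0.95 in the mean (12.19, 12.35 and 11.70 against 11.19, 11.32 and 10.88), and Stom, the membrane protein stomatin, by 0.89 (9.09, 9.27 and 9.75 against 8.42, 8.34 and 8.65). Neither group pair overlapped, but other probe sets of both genes disagreed. They ran from -1.02 to 0.18 over 4 others of Slc25a30 and from -0.92 to 0.09 over 5 others of Stom. Both genes rose with the full-length receptor, by 1.57 and 1.33 (limma adjusted p = 0.00568 and 0.0096), and were not called with the deleted receptor, at 0.63 and 0.44.

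Metrnl, a secreted factor of the meteorin family, followed another order. It read 10.10, 10.34 and 10.62 with the full-length and 9.02, 9.37 and 9.37 with the deleted receptor, and the empty-vector mean of 9.50 ± 0.30 (SD, n = 3) lay above the latter. The difference was -1.10 (SE 0.19, limma adjusted p = 0.871, or 0.0784 with the block), with -0.55 to -0.36 in its 2 other probe sets. Krt13, an epithelial keratin gene at a low level, was lower by 0.71 in the mean, with 6.52, 6.94 and 7.03 against 6.19, 6.13 and 6.05. Its empty-vector mean of 6.45 ± 0.18 (SD, n = 3) likewise lay between the groups.

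**Figure D2:**
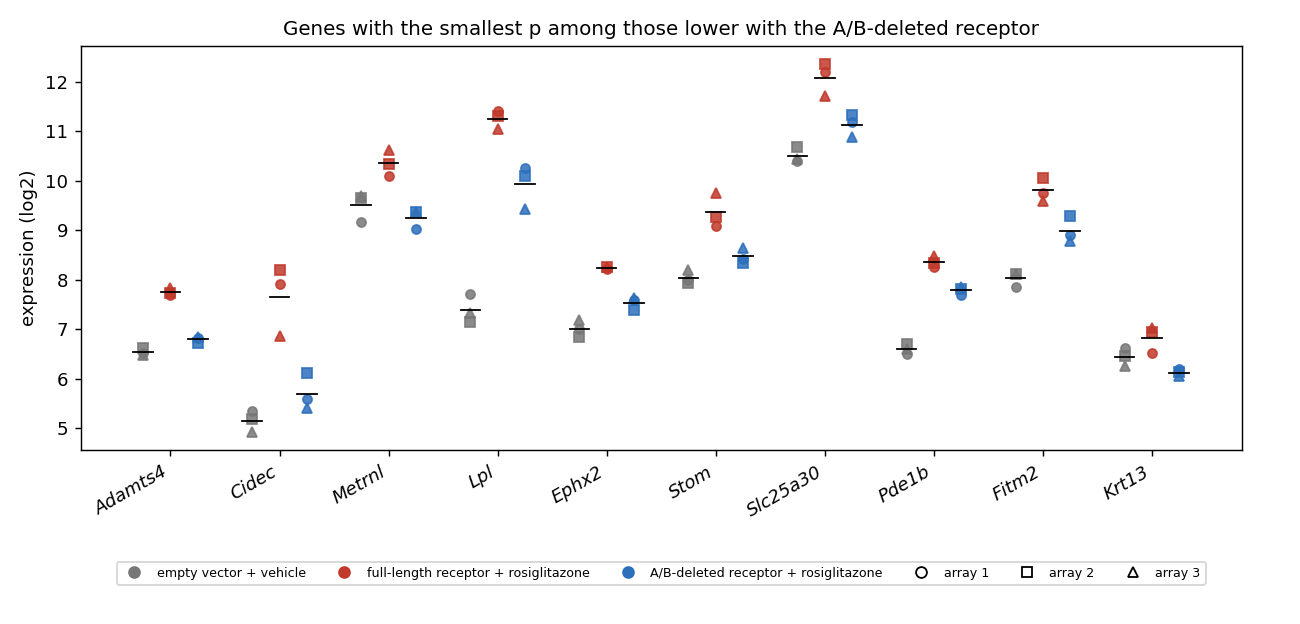
Log2 expression of the 10 genes with the smallest p-values among those lower with the deleted receptor, on the 9 arrays. Points are single arrays, their shape gives the replicate number and bars are group means (n = 3). The deleted-receptor arrays lie below the full-length arrays in all 10 genes, near the empty-vector arrays in Adamts4 and Cidec and far above them in Lpl and Pde1b.

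In the other direction, Fat4 had the smallest p with the block. Fat4, an atypical cadherin, read 8.16, 7.98 and 7.52 with the full-length and 9.29, 8.91 and 8.69 with the deleted receptor, against 8.39 ± 0.33 (SD, n = 3) with empty vector. The empty-vector mean lay between the groups, which did not overlap. The difference was 1.08 (SE 0.23, 95% interval 0.57 to 1.59), a 2.11-fold higher value, with pair differences of 1.13, 0.94 and 1.17 and a second probe set at 0.94. Its limma adjusted p was 1.00, or 0.0784 with the block. Against empty vector Fat4 was at 0.57 with the deleted and -0.51 with the full-length receptor. Both were called with the block (limma adjusted p = 0.0309 and 0.0208) and neither without it.

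Prmt1, an arginine methyltransferase that acts as a coactivator of nuclear receptors, read 10.26, 9.96 and 9.67 with the full-length and 10.92, 11.84 and 10.75 with the deleted receptor. The empty-vector mean was 11.48 ± 0.36 (SD, n = 3), closer to the deleted receptor. The difference of 1.20 (SE 0.30) varied over the pairs from 0.65 to 1.87 and had a limma adjusted p of 1.00. Glrx, the redox enzyme glutaredoxin, differed by 0.70 (10.38, 10.08 and 9.66 against 10.97, 10.69 and 10.55), with 0.75 in its second probe set. Trappc3, a subunit of a vesicle tethering complex, differed by 0.84, but its pair of arrays numbered 3 differed by 0.02, and without that pair the difference was 1.25. The other 4 genes of this group, 1110015O18Rik, Tafa4, 1700007E05Rik and Gstm6, differed by 0.45 to 0.63 and had levels under 6 on all 6 arrays.

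Some genes that fell with the full-length receptor lay nearer to empty vector with the deleted one. Ptger4, a receptor for prostaglandin E2, read 8.41, 7.82 and 7.93 with the full-length and 8.98, 8.50 and 8.91 with the deleted receptor, against 9.24 ± 0.13 (SD, n = 3) with empty vector. Vcam1, the vascular cell adhesion molecule, read 7.92, 7.86 and 7.97 against 8.29, 8.56 and 8.92, with an empty-vector mean of 9.48 ± 0.26 (SD, n = 3). In both the groups did not overlap, and the differences were 0.74 (SE 0.19) and 0.67 (SE 0.18), neither called. The 2 other probe sets of Vcam1 gave 0.06 to 0.56. Against empty vector Ptger4 and Vcam1 fell by 1.18 and 1.57 with the full-length receptor (limma adjusted p = 0.0238 and 0.00444) and were at -0.45 and -0.89 with the deleted receptor (adjusted p = 1.00 and 0.195). The comparisons against empty vector share arrays with the comparison between the receptors, so their values are only set side by side.

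**Figure D3:**
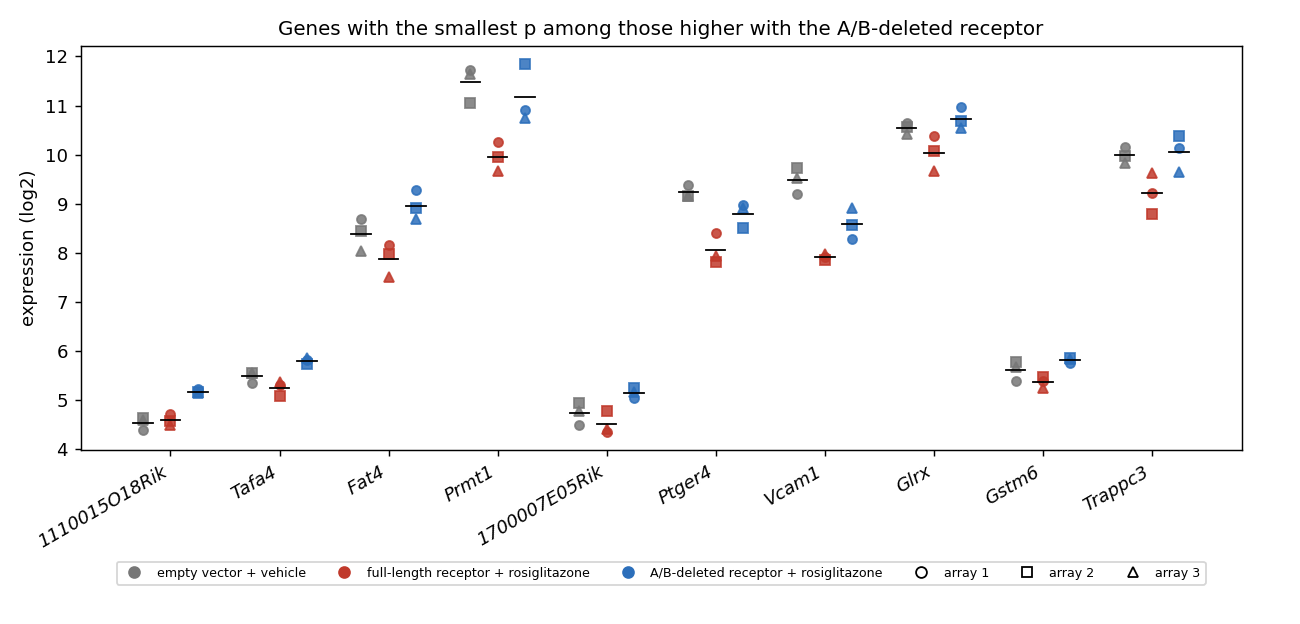
Log2 expression of the 10 genes with the smallest p-values among those higher with the deleted receptor, on the 9 arrays. Points are single arrays, their shape gives the replicate number and bars are group means (n = 3). Vcam1 and Ptger4 show the order empty vector, deleted receptor, full-length receptor from high to low, and in Fat4 the deleted receptor lies above both other means.

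Genes raised by the same amount within narrow limits with both receptors plus agonist were sought. They came from the 28 genes called at least 1 log2 unit higher than empty vector with each receptor. In the 8 whose 95% interval of the difference reached least far from 0, Cpt1a and Acot2 were joined by genes of other functions. Ppcs, an enzyme of coenzyme A synthesis, read 7.69, 7.70 and 7.80 with the full-length and 7.64, 7.76 and 7.70 with the deleted receptor, against 6.67 ± 0.12 (SD, n = 3), and its difference of -0.03 had a 95% interval from -0.26 to 0.21. Hccs, which attaches haem to cytochrome c, differed by 0.01 (95% interval -0.32 to 0.34), and Mob3b, of the MOB kinase activator family, by 0.00 (95% interval -0.38 to 0.38) while being 2.26 above empty vector with either receptor. The sialyltransferase gene St6gal1 differed by 0.03, the ubiquitin ligase gene Trim25 by -0.17 and the spindlin family gene Spin4 by -0.15, and their 95% intervals lay within -0.44 and 0.41. These genes were selected for narrow intervals, so the values are a description.

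The gene lists were chosen with earlier results of these data known. Some genes, such as Cidec, Pcx and Btg2, stand in several lists, so the lists are a description and not separate support. Described by function, the list of PPAR target genes lay lower. Of its 40 measured genes (48 listed) 33 differences were below 0 at 2 decimals and 6 above, against 52.2% and 44.3% of all genes, and the median was -0.15 with quartiles of -0.29 and -0.07, against a median of -0.01 over all genes. Limma called 0 of them. At an unadjusted p under 0.05 there were 5 lower (12.5%) and 0 higher, against 0.978% and 0.544% of all genes. The 5 were Cidec, Lpl, Fitm2, Pcx and the glycerol channel gene Aqp7 (-0.30). Aqp7 was dim, with means of 5.85 with the full-length and 5.55 with the deleted receptor, and its second probe set gave -0.07. It was not called against empty vector with either receptor. With the block 8 PPAR targets were lower (20%) and 0 higher at that limit, against 1.98% and 2.34% of all genes. The list's median was -0.07, -0.16 and -0.23 in pairs 1, 2 and 3, -0.09 without the arrays numbered 3 and -0.08 without full-length array 3. The median over the dimmest band of all genes, those up to 6.32, was itself -0.07, and it was 0.00 without full-length array 3, while the band of genes from 7.44 to 8.99, which holds the list's median level of 8.01, had a median of 0.01.

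The other lipid lists differed among themselves. At an unadjusted p under 0.05 without the block, their counts stand against 0.978% lower and 0.544% higher over all genes. Lipid droplet and lipolysis genes had a median of -0.01 over 20 genes, with Cidec, Fitm2 and Aqp7 lower (15%) and 0 higher. Fatty acid uptake and activation genes had -0.09 over 20, with Lpl lower (5%). Fatty acid oxidation genes had -0.04 over 41, with 0 in either direction, and lay at medians of 0.40 and 0.41 above empty vector with the full-length and the deleted receptor. Synthesis genes had -0.04 over 32 with Pcx lower (3.12%). Adipokine and adipocyte identity genes had -0.06 over 27 with the caveolin gene Cav2 higher (3.70%), by 0.46, but by 0.06 in its second probe set. Brown adipocyte genes had -0.12 over 19 with Prdm16 lower (5.26%). In these short lists 1 gene makes up such a share. The brown adipocyte median was 0.03, -0.03 and -0.29 in pairs 1, 2 and 3 and 0.04 without the arrays numbered 3.

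Signalling and stress lists were split as well. In the list of immediate early genes and feedback regulators of ERK signalling the median was 0.07 over 35 genes, and Dusp6, Egr1 and Errfi1 were higher (8.57%) and Btg2 lower (2.86%) at an unadjusted p under 0.05. With the block that list held 10 higher and 2 lower, 28.6% and 5.71%, against 2.34% and 1.98% of all genes. Chemokine, cytokine and NF-kB target genes had a median of 0.04 over 38, with Vcam1, Cxcl5 and Tnfaip6 higher (7.89%) and 0 lower, or 9 (23.7%) and 0 with the block. Genes of p53 and growth arrest had -0.13 over 23, with Plk3, Btg2, Tob1 and Gadd45g lower (17.4%) and 0 higher, or 6 (26.1%) and 2 (8.70%) with the block.

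Contractile genes had a median of 0.05 over 27, preadipocyte genes 0.06 over 33, extracellular matrix genes 0.03 over 43 and cholesterol genes 0.04 over 24, each with 0 members at an unadjusted p under 0.05 in either direction. With the block, where 2.34% of all genes were higher and 1.98% lower, there were 5 higher contractile genes (18.5%), 5 higher and 1 lower preadipocyte genes (15.2% and 3.03%), 3 higher and 3 lower matrix genes (6.98% each) and 0 cholesterol genes. Without the block, oxidative stress and xenobiotic genes had -0.04 over 34, with Ephx2 and Mgst1 lower (5.88%) and Hmox1 higher (2.94%). Glucose metabolism genes had -0.05 over 33, with Pcx and Gys1 lower (6.06%). Interferon genes had -0.03 over 29 with Gbp3 lower (3.45%). Cell cycle (39), endoplasmic reticulum stress (28), respiratory chain (38) and reference genes (13) had medians from 0.00 to 0.02 and 0 members in either direction. With the block, oxidative stress genes had 2 higher and 4 lower (5.88% and 11.8%). Glucose genes had 3 lower (9.09%) and interferon genes 1 lower (3.45%). Cell cycle, endoplasmic reticulum stress and respiratory chain genes had 1 lower each (2.56%, 3.57% and 2.63%). The lists of adipocyte, muscle, bone, leukocyte and epithelial markers, mostly dim genes, had medians from -0.20 to -0.12, or -0.17 to 0.01 without the arrays numbered 3, and fibroblast markers 0.02. Limma called 0 genes in every list, with and without the block.

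**Figure D4:**
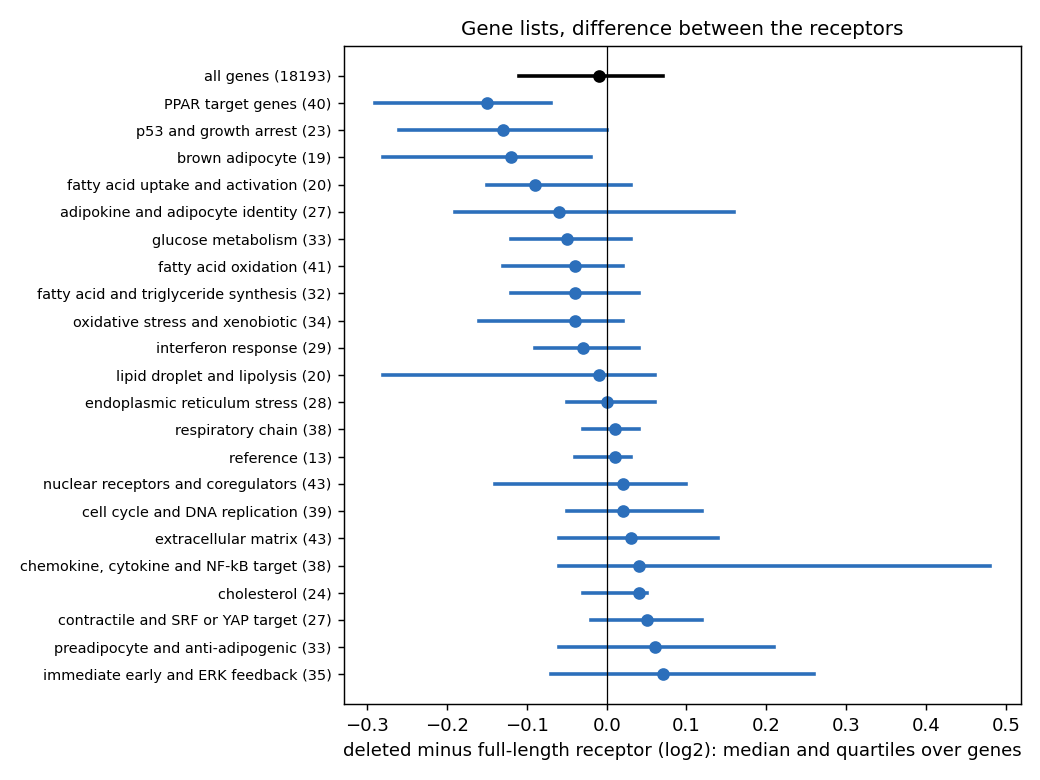
Difference between the receptors in each functional gene list. The x axis is deleted minus full-length receptor in log2 units, points are medians over the genes of a list and lines their quartiles, with the number of genes in brackets. Among the functional lists drawn, which leave out the cell type markers, the PPAR target genes have the lowest median, -0.15, the reference and respiratory chain lists lie at 0.01, and the upper quartile of the cytokine list reaches 0.48.

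Several members of these lists were named after their values were seen. Cxcl5, a chemokine of neutrophils, read 6.20, 6.55 and 5.41 with the full-length and 7.01, 7.65 and 7.46 with the deleted receptor, against 9.10 ± 0.87 (SD, n = 3) with empty vector. The groups did not overlap, and the difference was 1.32 (SE 0.42, limma adjusted p = 1.00), or 0.96 without the arrays numbered 3. Cxcl5 fell by 3.05 with the full-length receptor (limma adjusted p = 0.0124) and was at -1.72 with the deleted receptor (adjusted p = 0.401).

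Dusp6, a phosphatase that switches off ERK, read 8.78, 8.03 and 8.20 against 9.17, 8.57 and 9.14, with an empty-vector mean of 10.38 ± 0.20 (SD, n = 3). Its groups overlapped, and the difference was 0.62 (SE 0.23), or 0.46 without the arrays numbered 3. It fell by 2.04 with the full-length receptor (limma adjusted p = 0.0043) and was at -1.42 with the deleted receptor, not called (adjusted p = 0.0697). That value was called with the block (0.0221), among genes above the median level (0.0452) and without full-length array 1 (0.0428). The immediate early gene Egr1 differed by 0.51, the EGF receptor inhibitor gene Errfi1 by 0.58 and the matrix-binding gene Tnfaip6 by 0.53, and all 3 were highest with empty vector. Without the arrays numbered 3 the differences between the receptors were 0.39, 0.43 and 0.37. Against empty vector these genes were at -1.31, -1.21 and -1.15 with the deleted receptor, not called in the main fit (limma adjusted p = 0.0697, 0.21 and 0.0697). With the block they were called (0.0203, 0.0239 and 0.0199).

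Among growth arrest genes, the kinase gene Plk3 read 8.45, 8.40 and 8.68 with the full-length and 7.64, 8.01 and 7.93 with the deleted receptor, against 7.30 ± 0.24 (SD, n = 3). Its groups did not overlap and the difference was -0.65 (SE 0.16). The antiproliferative genes Btg2 and Tob1 differed by -0.90 (SE 0.37) and -0.50 (SE 0.21), and the second probe set of Tob1 gave 0.08. These 3 genes rose with the full-length receptor, by 1.21, 2.60 and 1.43 (limma adjusted p = 0.0096, 0.0136 and 0.0174), while with the deleted receptor they were 0.56, 1.69 and 0.92 higher, none of them called. Btg2 was called there with the block (adjusted p = 0.02) and without the arrays numbered 3 (1.95, adjusted p = 0.00703).

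Hmox1, haem oxygenase, had the largest mean difference of all genes that were higher, 1.61, but it rested on 1 pair. It read 9.04, 7.30 and 10.35 with the full-length and 9.83, 10.92 and 10.78 with the deleted receptor, and the pairs differed by 0.79, 3.62 and 0.43. Without the arrays numbered 3 the mean difference was 2.20. Mgst1, a microsomal glutathione transferase, differed by -0.89 (SE 0.31) with no overlap, while its second probe set gave 0.00. Tle3, a corepressor with a role in adipocyte gene expression, was lower in the 3 pairs by near-equal amounts, -0.43, -0.49 and -0.51, and its 3 other probe sets gave -0.40 to -0.34. Foxred2, an oxidoreductase of the endoplasmic reticulum, differed by -0.80 (7.08, 7.05 and 6.34 against 6.29, 6.18 and 5.61), with pair differences of -0.79, -0.87 and -0.73 and a limma adjusted p of 1.00, or 0.0784 with the block.

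Coregulators that nuclear receptors recruit were measured at the transcript level too. Med1 differed by -0.21, Ncoa1 by -0.43, Ncoa2 by 0.13, Ncoa3 by -0.11, Crebbp by 0.08, Ep300 by 0.12 and Carm1 by -0.01, and each of their 95% intervals held 0. The interval of Ncoa1 was wide, from -1.10 to 0.24, and its difference was -0.58 without the arrays numbered 3. Its 2 other probe sets gave -0.36 to 0.03, and the 6 others of Med1 gave -0.02 to 0.33. Over the 43 measured nuclear receptors and coregulators the median was 0.02. At an unadjusted limma p under 0.05 Prmt1 was higher and Prdm16 lower, 2.33% each, against 0.544% and 0.978% of all genes. With the block there were 2 higher (4.65%) and 1 lower (2.33%), against 2.34% and 1.98% of all genes. Transcript levels do not show which of these proteins a receptor bound.

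Some calls against empty vector depended on single arrays. With 91 genes called higher (0.5%) and 28 lower (0.154%) for the full-length receptor, and 29 higher (0.159%) and 2 lower (0.011%) for the deleted receptor, or 120 (0.66%) and 46 (0.253%) with the block, leaving out 1 array moved adjusted p-values past 0.05 in several named genes. With the full-length receptor, the calls of Pcx and Ech1 were lost without any of full-length arrays 1 and 2, deleted-receptor array 1 and the 3 empty-vector arrays, up to 0.137 and 0.138. Ptger4 was lost without any of full-length arrays 2 and 3 or an empty-vector array (up to 0.123), Btg2 without any of full-length arrays 1 and 2 or an empty-vector array (up to 0.0794), and Tob1 without any of full-length arrays 1 and 2 or empty-vector arrays 2 and 3 (up to 0.0946). St6gal1 was lost without full-length array 1 or empty-vector array 1 or 2 (up to 0.0957), Plk3 without empty-vector array 1 or 2 (up to 0.054) and Stom without empty-vector array 2 (0.0576). With the deleted receptor, Plin2 was lost without empty-vector array 1 or 2 or deleted-receptor array 2 (up to 0.0748), Hccs without empty-vector array 1 or 2 or deleted-receptor array 1 (up to 0.0551), and Etfdh without deleted-receptor array 1 or 2 or any empty-vector array (up to 0.113). St6gal1 was lost there without any 1 array other than full-length array 3 and empty-vector array 3 (up to 0.209). Ech1 was not called with the deleted receptor (adjusted p = 0.0697), but it was with the block (0.00506) and among genes above the median level (0.0471).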

How the data were processed

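Biotin-labelled RNA was measured on Affymetrix arrays. Per the submitters' processing notes, the authors used RMA, the package affy and R 2.5.0, and they deposited 1 log2 value for each probe set and array. RMA draws arrays towards a common distribution, so a shift of all genes would not be seen; the log base was read from the values. Array medians ran from 6.68 to 6.90. Of 45101 probe sets, 34945 had 1 gene symbol in the platform annotation, and for each of 18193 genes the brightest one, by its mean over 9 arrays, was kept. The 932 probe sets with several symbols, 9160 with none and 64 controls were left out.

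Differences were tested with limma 3.58.1 in R 4.3.3, in 1 fit over 9 arrays with 3 group means and no block, and Benjamini-Hochberg adjustment over all genes. The code was tested on simulated data. Deviations from the group means of equally numbered deleted and full-length arrays correlated across genes at 0.297, 0.507 and 0.531, all over 0.1. The numbers were therefore treated as pairs, and the blocked fit is given beside the main fit for some genes, not for every call it changes. The deleted and empty-vector arrays were also treated as pairs, at 0.520 to 0.708. Members and gene lists were chosen with earlier results of these data known. Named genes were the 10 smallest p-values in each direction, since none were called, the PPAR targets called against empty vector, the 8 genes raised by both receptors whose interval lay nearest to 0, and Pparg, Cxadr and Rxra. The number of arrays limits the precision, with a median standard error of 0.158 for a difference.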

Additional observations from a re-analysis of the deposited data

Results flagged for a closer look

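The array carries control probe sets for pyruvate carboxylase, which the comparisons did not use and which gave a signal above that of the empty-vector arrays. The mean of the 4 probe sets was 7.77 ± 0.28 (SD, n = 3) with the full-length receptor, 7.17 ± 0.39 with the deleted receptor and 6.71 ± 0.12 with empty vector. Full-length minus empty was 1.07, deleted minus empty 0.46 and deleted minus full-length -0.61, with single probe sets from -1.03 to -0.11. The gene's own probe set gave -1.09 for the difference between the receptors.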

How the results depend on the processing

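The count of 0 called genes between the receptors stayed 0 with the replicate number as a block and moved to 1 with genes of a mean of at least 6 (Adamts4, adjusted p = 0.0498) and to 1 at an adjusted p under 0.10. Leaving out 1 array gave 0 to 1. With scaling and block changed together, settings chosen after seeing the data, it was 4 after median subtraction (Adamts4 and Metrnl at 0.0406, Cidec at 0.0406, Fat4 at 0.0397) and 3 after quantile normalization (Adamts4 and Metrnl at 0.0489, Fat4 at 0.046). The 119 genes called between full-length receptor and empty vector became 661 with the block, though those arrays were not treated as pairs, 184 with every probe set, 187 with genes above the median level, and 57 to 114 without 1 array. With the block and the mean of probe sets, median subtraction, quantile normalization or no arrays numbered 3 they were 522, 467, 701 and 361. The 31 called between deleted receptor and empty vector became 166 with the block, 55 without the arrays numbered 3 and 17 to 34 without 1 array, and 134, 144, 169 and 96 under the same 4 added settings. The named calls of Adamts4, Metrnl, Cidec and Fat4, with that of Cidec without full-length array 3, make up the 9 calls gained between the receptors, 0 named genes with an unadjusted p under 0.05 changed direction under these settings, and the block alone changed no call between the receptors. List medians moved by more than their spread over the 3 pairs in 78 combinations of list and setting and by less in 565.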
